A study of Mus musculus with 10 samples.

Results

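Interferons are secreted cytokines, and their receptors, STAT proteins and interferon regulatory factors (IRFs) make up the relay by which a cell detects them and changes its transcription. The 9 genes described here are that relay in part: the chains of the type I receptor (Ifnar1, Ifnar2) and of the type II receptor (Ifngr1, Ifngr2), Stat2, and the IRF genes Irf9, Irf1, Irf3 and Irf7. They were chosen by symbol, through the Ensembl identifiers of the deposited table of all genes, and all 9 were found among its 35275 genes. All of them passed the filter on low values. The study used lactating mice of the inbred strain BALB/c, whose mammary glands received, through the teat, 50 µL of lipopolysaccharide (LPS, the endotoxin of Gram-negative bacteria, here from E. coli 055: B5) at 0.4 mg/mL or 50 µL of sterile phosphate-buffered saline (PBS). The agents went into the left or right gland of the 4th pair on day 3 of lactation, and tissue was taken 12 h after injection. Sequenced were 5 LPS glands and 5 PBS glands, all lactating and all injected, and glands without any injection were not analysed here. The labels give n = 9 and do not tie the 10 libraries to animals, so each p-value is relative to the variation among these glands, which may be technical in part.

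Type I interferons (the alpha and beta interferons) bind the IFNAR1 and IFNAR2 chains, and type II interferon (interferon gamma) binds IFNGR1 and IFNGR2. JAK kinases on the receptors then phosphorylate STAT proteins. STAT2 joins IRF9 and a further STAT protein in the complex ISGF3, which binds the interferon-stimulated response element (ISRE), whereas interferon gamma acts through STAT dimers that bind the gamma-activated site (GAS). IRF3 is present in unstimulated cells and is activated by phosphorylation, among other routes downstream of the LPS receptor, whereas IRF7 and IRF1 are themselves products of interferon-induced genes. FPKM is the number of fragments divided by gene length and by the counted reads of the library, so levels of different genes can be compared per length. The libraries held 15734303 to 18869545 counted reads each, and the 9 genes had 501 to 6131 reads each per library. Casein genes and other secretory epithelial markers were abundant in every library (summed FPKM of 11 markers 208553 to 340131), as the tissue label says.

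Of the 9 transcripts, Irf7 rose 2.09-fold and Ifngr1 1.36-fold in LPS glands by the ratio of mean FPKM, the other 7 did not pass the test, and 0 fell. Irf1 was also higher in every LPS gland than in any PBS gland (1.49-fold, limma adjusted p = 0.0836), and Ifnar2 in 4 of 5 (1.34-fold, adjusted p = 0.0713). Irf3 stayed within the same range in both groups, at 0.986-fold. The call of Irf7 held in 19 of 22 alternative analyses and that of Ifngr1 in 7 of 22. The count of 2 among 9 is 22.2%, where 2.63% of all 11414 tested genes were called higher in LPS glands and 0.605% lower, by limma on log2(FPKM + 1) at a Benjamini-Hochberg adjusted p below 0.05 (3.23% in either direction). A fall was found for 0 of the 9 genes by limma, edgeR and DESeq2, also at an unadjusted p below 0.05, where limma found 4 higher. Of all 11414 tested genes, limma had 1414 higher and 465 lower at that unadjusted threshold. There edgeR had 914 and DESeq2 956 genes lower in all. With FPKM scaled outside milk proteins, 1 of the 9 (Irf3) was lower at an unadjusted p below 0.05 and 4 of the 9 changes were below 0. On that scale 2356 of all 11414 tested genes were lower at this threshold and 8804 changes were below 0. On reads recovered from the FPKM values, edgeR called 1 of the 9 genes higher (2.67% of all tested genes) and DESeq2 2 (4.78%). Every LPS library lay above every PBS library for 3 of the 9 genes (33.3%) and for 3.53% of all tested genes, and below for 0 of the 9 and for 1.22% of all. The median log2 change was 0.40 for the 9 genes and 0.05 for all tested genes. Without the 3 libraries richest in B and T cell transcripts (PBS replicates 2 and 4 and LPS replicate 3), limma called 0 of the 9 genes higher and 28 genes higher in all, whereas leaving out any 1 library gave 1 or 2 of the 9. In that fit 4 of the 9 and 1221 of all 11153 tested genes were higher at an unadjusted p below 0.05. The edgeR and DESeq2 fits were not run without those libraries.

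**Figure D1:**
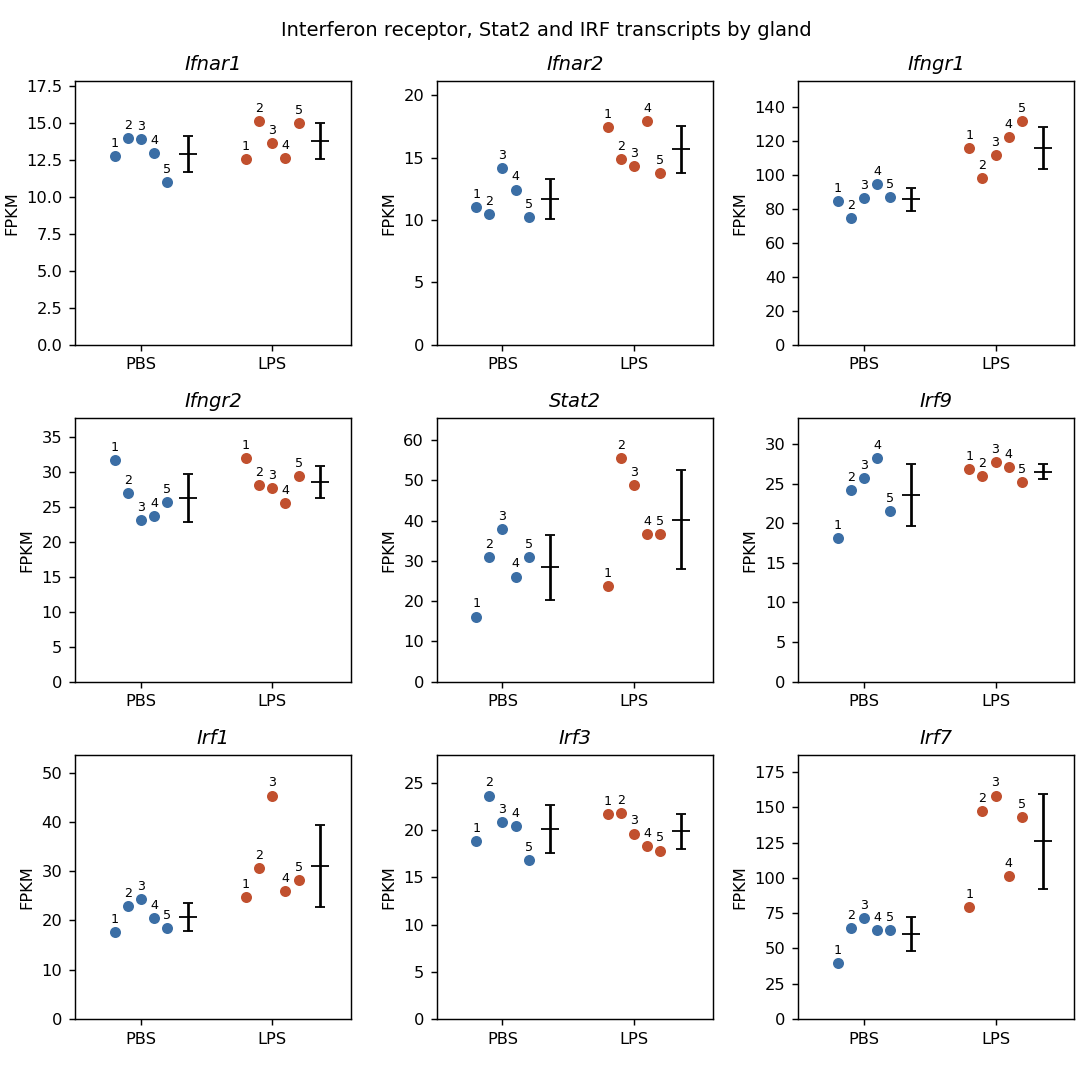
FPKM of each of the 9 genes in every library, with the replicate number above each point and the group mean ± SD (n = 5) in black; every vertical axis starts at 0. The groups do not overlap for Ifngr1, Irf1 and Irf7, and replicate 1 of each group is the lowest of its group for Stat2, Irf1 and Irf7.

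The sequences before the start sites were searched because several of these genes are themselves known interferon targets. RefSeq start windows on build GRCm38.p6 were found for all 9 genes (11 windows, since Irf1 and Irf9 have more than 1 start). In the 250 bases before each start, both strands were searched for the ISRE core (GAAA, any 2 bases, GAAA), for the GAS motif TTCNNNGAA, and for the kB consensus bound by NF-kB. Of 32817 such windows over all genes, 2.97% held the ISRE core, 7.01% the GAS motif and 5% the kB consensus. Matches were found for 4 of the 9 genes. They are printed 5′ to 3′ on the strand of the gene, with the match in capitals, to show which of these genes carries which element near its start.
Stat2, ISRE core on the opposite strand, 222 to 213 bases before the start, chr10:128270256-128270305, plus strand: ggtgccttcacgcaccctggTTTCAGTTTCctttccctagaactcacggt
Irf1, GAS, 90 to 82 bases before the start, chr11:53769904-53769952, plus strand: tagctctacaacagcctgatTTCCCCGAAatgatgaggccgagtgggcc
Irf1, kB consensus on the opposite strand, 13 to 4 bases before the start, chr11:53769981-53770013, plus strand: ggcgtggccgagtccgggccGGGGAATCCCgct
Ifnar2, GAS, 214 to 206 bases before the start, chr16:91372549-91372597, plus strand: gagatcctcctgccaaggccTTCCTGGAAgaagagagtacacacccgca
Ifngr2, kB consensus on the opposite strand, 75 to 66 bases before the start, chr16:91546964-91547013, plus strand: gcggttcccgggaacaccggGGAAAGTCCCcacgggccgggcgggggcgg

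Irf1 alone had matches of more than 1 motif. The windows of Irf7, Irf3, Irf9, Ifnar1 and Ifngr1 held no match, which says only that these letters are not in those 250 bases. A match is a description of the sequence, and binding was not measured.

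The type I receptor chains had similar levels per length. Ifnar1 (ENSMUSG00000022967, chromosome 16, 91485238 to 91507441, plus strand) was at 12.8, 14.0, 13.9, 13.0 and 11 FPKM in PBS replicates 1 to 5 and 12.6, 15.1, 13.6, 12.7 and 15.03 FPKM in LPS replicates 1 to 5. Ifnar2 (ENSMUSG00000022971, chromosome 16, 91372783 to 91405589, plus strand) was at 11.02, 10.5, 14.2, 12.5 and 10.3 FPKM in PBS replicates 1 to 5 and 17.5, 14.9, 14.3, 17.9 and 13.8 FPKM in LPS replicates 1 to 5. Ifnar1 overlapped between the groups, and its log2 change of 0.09 ± 0.09 (SE) had a 95% interval of -0.11 to 0.29 (adjusted p = 0.7097). For Ifnar2 the PBS glands lay at 10.3 to 14.2 FPKM and the LPS glands at 13.8 to 17.9 FPKM, so that only PBS replicate 3 reached into the LPS range, where it lay above LPS replicate 5. The log2 change of Ifnar2 was 0.40 ± 0.11 (interval 0.16 to 0.64, adjusted p = 0.0713), and it was called without PBS replicate 3 (adjusted p = 0.0395). Exons of Ifnar2 share 315 of 3329 bases on the same strand with Gm21970, which was at 0 FPKM on average. Whether reads there were left out of the Ifnar2 value is not known. The IFNAR2 chain is the one that also exists in a soluble form, but the table gives 1 value per gene and does not separate transcript forms.

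The type II receptor chains differed in level. Ifngr1, the ligand-binding chain (ENSMUSG00000020009, chromosome 10, 19591949 to 19610229, plus strand), was at 84.6, 74.7, 86.2, 94.2 and 87.0 FPKM in PBS replicates 1 to 5 and 116, 97.8, 112, 122 and 131 FPKM in LPS replicates 1 to 5. Ifngr2, the signal-transducing chain (ENSMUSG00000022965, chromosome 16, 91547072 to 91565623, plus strand), was at 31.7, 27.0, 23.2, 23.7 and 25.7 FPKM in PBS replicates 1 to 5 and 31.97, 28.1, 27.7, 25.6 and 29.5 FPKM in LPS replicates 1 to 5. Ifngr1 was the most abundant of the 4 receptor transcripts in every library, and its groups were separate, with 94.2 FPKM in the highest PBS gland and 97.8 FPKM in the lowest LPS gland. Mean Ifngr1 was 85.4 ± 6.99 FPKM after PBS and 116 ± 12.5 FPKM after LPS (SD, n = 5), a log2 change of 0.43 ± 0.10 (interval 0.22 to 0.64, limma adjusted p = 0.0308). Ifngr2 overlapped, with replicate 1 the highest of each group and a log2 change of 0.12 ± 0.10 (interval -0.09 to 0.34, adjusted p = 0.605). The rise of Ifngr1 depended on scaling: its adjusted p was 0.164 with median-of-ratios scaling, 0.214 with quantile normalization and 0.326 after leaving milk protein genes out of the library total (log2 change 0.36, 0.29 and 0.22). On whole reads recovered from FPKM, edgeR gave an adjusted p of 0.138 and DESeq2 of 0.0733, and the limma call was lost on leaving out any of 8 libraries, with adjusted p up to 0.0769; these were all PBS replicates and LPS replicates 3, 4 and 5.

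Ifnar2, Ifnar1 and Ifngr2 lie in 1 cluster on chromosome 16 with Il10rb, which encodes a chain shared by the receptors of type III interferons and interleukin-10. The 4 genes span 192841 bases on the plus strand. Il10rb was at 13.1 ± 0.330 FPKM after PBS and 15.4 ± 2.93 FPKM after LPS (adjusted p = 0.430), so 0 of these 4 neighbours were called. At an unadjusted p below 0.05 only Ifnar2 was higher among the 3 that belong to the 9 genes, as were 1414 of all 11414 tested genes. Ifnlr1, which encodes the chain specific to type III interferons, was at 3.91 ± 0.443 FPKM after PBS and 4.12 ± 0.233 FPKM after LPS (adjusted p = 0.823).

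Stat2 and Irf9 encode the ISGF3 subunits measured here. Stat2 (ENSMUSG00000040033, chromosome 10, 128270559 to 128292849, plus strand) was at 16.2, 31.0, 38.0, 26.1 and 30.9 FPKM in PBS replicates 1 to 5 and 23.8, 55.5, 48.9, 36.6 and 36.6 FPKM in LPS replicates 1 to 5. Irf9 (ENSMUSG00000002325, chromosome 14, 55603571 to 55610030, plus strand) was at 18.1, 24.2, 25.7, 28.2 and 21.5 FPKM in PBS replicates 1 to 5 and 26.8, 25.9, 27.7, 27.1 and 25.2 FPKM in LPS replicates 1 to 5. Stat2 varied most of the 9 genes within the PBS group and within the LPS group, with coefficients of variation of 28.3% in PBS and 30.5% in LPS glands, and LPS replicate 1 lay below 4 of the 5 PBS glands. Its log2 change was 0.48 ± 0.24 (interval -0.03 to 1.00, adjusted p = 0.340). It was 0.30 without PBS replicate 1 and 0.65 without LPS replicate 1 (adjusted p = 0.598 and 0.125). Irf9 was nearly equal among the LPS glands, with a coefficient of variation of 3.74% against 16.4% in PBS glands, and PBS replicate 4 was above every LPS gland. The log2 change of Irf9 was 0.18 ± 0.11 (interval -0.05 to 0.41, adjusted p = 0.454). Exons of Irf9 share 123 bases on the same strand with Rnf31, which was at 17.6 FPKM on average, so reads there could have been assigned to either gene or to neither.

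Irf7 encodes the IRF that amplifies type I interferon production. Irf7 (ENSMUSG00000025498, chromosome 7, 141262706 to 141266481, minus strand) was at 39.4, 64.3, 71.3, 63.3 and 63.3 FPKM in PBS replicates 1 to 5 and 79.6, 148, 158, 101 and 143 FPKM in LPS replicates 1 to 5. The 10 libraries split without overlap, from 39.4 to 71.3 FPKM in PBS and from 79.6 to 158.4 FPKM in LPS glands. Replicate 1 was the lowest of each group, and LPS replicates 2, 3 and 5 were the highest. Mean Irf7 was 60.3 ± 12.2 FPKM after PBS and 126 ± 33.8 FPKM after LPS, a log2 change of 1.03 ± 0.20 (interval 0.59 to 1.47, limma adjusted p = 0.0181). Irf7 was the second of the 9 genes by level in PBS glands, after Ifngr1, and exceeded Ifngr1 in 3 of the 5 LPS glands. The limma call was lost without LPS replicate 2 (log2 change 0.96, adjusted p = 0.0564), without the 3 libraries richest in B and T cell transcripts (1.01, adjusted p = 0.113) and without the filter on low values (adjusted p = 0.0621). The authors' deposited table lists Irf7 with a log2 fold change of 0.87 and an adjusted p of 8.04e-06.

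Irf1 encodes an IRF induced by interferon gamma and by NF-kB. Irf1 (ENSMUSG00000018899, chromosome 11, 53770014 to 53778374, plus strand) was at 17.6, 22.9, 24.4, 20.5 and 18.4 FPKM in PBS replicates 1 to 5 and 24.8, 30.7, 45.3, 25.9 and 28.1 FPKM in LPS replicates 1 to 5. Every LPS gland was above every PBS gland, by a margin of 24.8 over 24.4 FPKM at the closest, and LPS replicate 3 stood apart at 45.3 FPKM. Its log2 change was 0.53 ± 0.15 (interval 0.20 to 0.86) and did not pass the limma test (adjusted p = 0.0836). DESeq2 on recovered reads called it (adjusted p = 0.0103) and edgeR did not (0.051), and without LPS replicate 3 the log2 change was 0.39 (limma adjusted p = 0.12). In the authors' deposited table Irf1 has a log2 fold change of 0.47 and an adjusted p of 0.0083. Irf1 and Irf7 were the only members of the 9 that the authors' deposited table lists.

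Irf3, the IRF activated without new synthesis, had overlapping groups. Irf3 (ENSMUSG00000003184, chromosome 7, 44997648 to 45002848, plus strand) was at 18.9, 23.7, 20.9, 20.4 and 16.9 FPKM in PBS replicates 1 to 5 and 21.7, 21.8, 19.7, 18.4 and 17.9 FPKM in LPS replicates 1 to 5. The range of the LPS glands lay inside that of the PBS glands. Its log2 change was -0.02 ± 0.10, with a 95% interval of -0.23 to 0.20 (adjusted p = 0.968). With other scalings the log2 change was -0.080 (median-of-ratios), -0.12 (quantile) and -0.22 (outside milk proteins), without a call in any (smallest adjusted p = 0.141). Transcript level says nothing of the phosphorylation of IRF3, which was not measured. Of the genes on the opposite strand that share exonic bases with a member, Phrf1 shares 45 with Irf7 (8.51 FPKM on average), Gm17334 135 with Irf1 (0.743 FPKM) and Bcl2l12 88 with Irf3 (2.04 FPKM); the labels do not say whether counting used the strand.

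**Figure D2:**
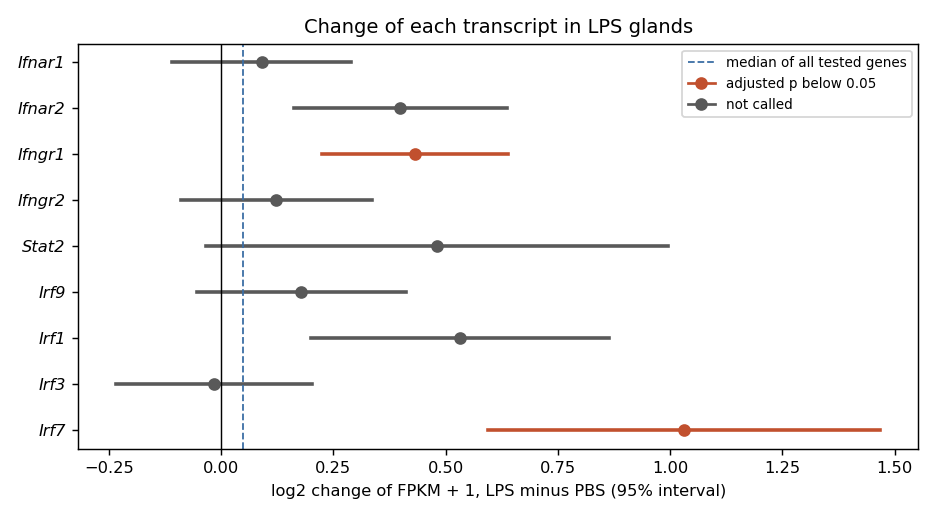
Log2 change of FPKM + 1 (LPS minus PBS) of each gene with its 95% interval from limma; red marks the genes called, Irf7 and Ifngr1, and the dashed line the median of all tested genes, 0.05. The intervals of Ifnar2, Ifngr1, Irf1 and Irf7 exclude 0, and those of Ifnar1, Ifngr2, Stat2, Irf9 and Irf3 include it.

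By mean FPKM over all libraries the order was Ifngr1, Irf7, Stat2, Ifngr2, Irf1, Irf9, Irf3, Ifnar2 and Ifnar1, between the 68.9th and 96.7th percentile of the tested genes. Each neighbouring pair in this order had overlapping ranges over the 10 libraries. Within libraries, Irf7 was above Stat2 and Irf3 above Ifnar2 in all 5 PBS and all 5 LPS glands. Ifnar2 was above Ifnar1 in 1 of 5 PBS glands and in 3 of 5 LPS glands. Ifngr2 was above Irf1 in 4 of 5 PBS glands and in 2 of 5 LPS glands. Irf1 was below Irf9 in all 5 PBS glands and above it in 3 of 5 LPS glands.

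Ratios of a pair of genes within each library do not depend on how that library was scaled. The Irf7 to Irf3 ratio was 2.09, 2.71, 3.41, 3.10 and 3.75 in PBS replicates 1 to 5 and 3.67, 6.76, 8.06, 5.53 and 8.01 in LPS replicates 1 to 5. It was higher in 4 of 5 LPS glands than in any PBS gland, with LPS replicate 1 inside the PBS range, and its mean went from 3.01 ± 0.645 to 6.40 ± 1.85. The difference of the log2 ratio was 1.06 (exact permutation of the group labels, two-sided, p = 0.0159, adjusted p = 0.0635 over the 4 ratios compared). The Ifngr1 to Ifngr2 ratio was 2.67, 2.77, 3.71, 3.97 and 3.39 in PBS replicates 1 to 5 and 3.62, 3.48, 4.03, 4.76 and 4.45 in LPS replicates 1 to 5 (log2 difference 0.31, exact p = 0.0714, adjusted p = 0.0952). The Ifnar1 to Ifnar2 ratio was 1.16, 1.33, 0.981, 1.04 and 1.07 in PBS replicates 1 to 5 and 0.721, 1.01, 0.952, 0.706 and 1.09 in LPS replicates 1 to 5 (log2 difference -0.33, exact p = 0.0635, adjusted p = 0.0952). Both receptor ratios overlapped between the groups. The Stat2 to Irf9 ratio had means of 1.203 ± 0.278 and 1.52 ± 0.469 (log2 difference 0.31, exact p = 0.27, adjusted p = 0.27). Leaving out LPS replicate 1 or LPS replicate 5 brought the adjusted p of the Irf7 to Irf3 ratio to 0.0317 (log2 difference 1.25 and 0.96), and leaving out LPS replicate 5 that of the Ifnar1 to Ifnar2 ratio (-0.41). With all libraries, none of the 4 ratios passed the threshold after adjustment; the smallest p that 5 against 5 libraries allow is 0.00794.

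**Figure D3:**
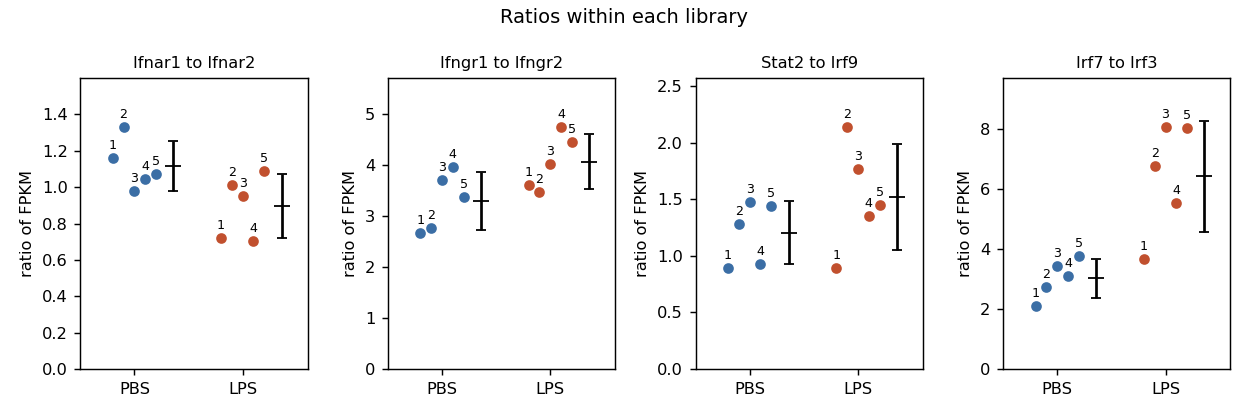
Ratio of FPKM of paired genes within each library, with the replicate number above each point and the mean ± SD (n = 5) in black; every vertical axis starts at 0. For Irf7 to Irf3 the LPS glands other than replicate 1 lie between 5.53 and 8.06 and the PBS glands between 2.09 and 3.75.

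The other genes of the pathway were taken from lists chosen by role with earlier results of these data known. Interferon genes themselves were close to undetected: of 21 listed, 15 had 0 reads in all 10 libraries (a count of 0 allows up to 3 reads in a library) and 0 passed the filter. Summed over the 21 genes, a library held 3 to 29 reads. Ifnb1, the gene of interferon beta, had 1 read, in LPS replicate 3. The highest mean FPKM were those of Ifne and Ifnk, epithelial type I interferons, with 17 and 11 reads over the PBS libraries and 22 and 15 over the LPS libraries. Ifng, the gene of interferon gamma (named after its values were seen), had 24 reads in LPS replicate 3, 1 in LPS replicate 5 and 0 in the other LPS libraries. Its reads in PBS replicates 1 to 5 were 0, 0, 1, 1 and 6.

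LPS replicate 3, the library with the most Ifng reads, was also the one with the highest Irf1. Among the 26 tested interferon gamma and IRF1 targets, 23 (88.5%) were highest in that library among the LPS glands (counted after the values were seen). The count was 11 (42.3%) for the 26 tested type I interferon targets and 3527 (30.9%) for all 11414 tested genes, and the difference between these shares was not tested. The summed FPKM of 12 T and NK cell markers was 30.9 in that library and 4.64 to 11.8 in the other LPS glands. The sum was 57.3 and 34.3 in PBS replicates 2 and 4, against 5.57 to 8.80 in the other PBS glands, and these PBS replicates had 0 and 1 Ifng reads. Gzma, a granzyme of T and NK cells, was at 13.7 FPKM in LPS replicate 3 and 3.16 to 6.75 FPKM in the other 9 libraries, and Trac, the constant part of the T cell receptor alpha chain, at 2.66 FPKM there against 11.8 and 6.31 FPKM in PBS replicates 2 and 4. The part of T and NK cell transcripts in the Irf1 level was not tested.

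The kinases at the receptors were not called: 0 of 3 by limma, edgeR or DESeq2, with 1 higher at an unadjusted p below 0.05 by each. Of all 11414 tested genes, these fits called 2.63%, 2.67% and 4.78% higher. At that unadjusted threshold 1414, 1133 and 1153 genes were higher in all. Jak1 was at 36.5 ± 2.93 FPKM after PBS and 38.9 ± 4.68 FPKM after LPS (adjusted p = 0.763) and Jak2, used by the interferon gamma receptor, at 13.1 ± 1.24 FPKM after PBS and 16.3 ± 2.48 FPKM after LPS (adjusted p = 0.202). Of the other STAT and IRF genes and IRF2 binding proteins, 11 of 13 were tested and 0 were called by limma, edgeR or DESeq2, also 0 at an unadjusted p below 0.05 by each. Stat3, the STAT of interleukin-6 type cytokines, was at 97.6 ± 9.89 FPKM after PBS and 103 ± 10.04 FPKM after LPS and Irf2bpl at 26.2 ± 4.18 FPKM after PBS and 27.2 ± 4.43 FPKM after LPS. The median log2 change of this list was -0.03, where all tested genes had 0.05.

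Negative regulators had 2 of 12 tested genes higher and 0 lower, where 2.63% of all tested genes were called higher and 0.605% lower. Usp18, which removes ISG15 from proteins and blocks signalling at IFNAR2, rose from 17.5 ± 3.64 to 44.3 ± 12.7 FPKM (log2 change 1.27 ± 0.19, limma adjusted p = 0.00506). Socs3, an inhibitor of JAK signalling, rose with a log2 change of 0.60 ± 0.13 (adjusted p = 0.0307). Socs1, the inhibitor of interferon gamma signalling (named after its values were seen), did not pass at 3.86 ± 1.08 FPKM after PBS and 8.36 ± 5.46 FPKM after LPS (adjusted p = 0.222). Its level of 17.3 FPKM in LPS replicate 3 stood above a range of 3.30 to 8.27 FPKM in the remaining LPS glands. Of the kinases, sensors and adaptors upstream of IRF3 and IRF7, 17 of 19 were tested, 2 rose and 0 fell. The rises were Dhx58, an RNA sensor of the RIG-I family (log2 change 1.02 ± 0.24, adjusted p = 0.0421), and Ifi204, of the DNA-sensing IFI200 family with close copies that make its value uncertain (0.70 ± 0.17, adjusted p = 0.0410). The 2 rises of this list were lost, with 0 called, without LPS replicate 2, 3, 4 or 5 or PBS replicate 1, 4 or 5, and in the list of negative regulators 1 of the 2 was left without LPS replicate 2 or 3 or PBS replicate 1, 3, 4 or 5.

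Targets of type I interferon had 17 of 26 tested genes higher and 0 lower, with a median log2 change of 0.97. Of all tested genes, 2.63% were called higher and 0.605% lower, with a median of 0.05. The largest rises were Oas3 (log2 change 1.83 ± 0.30), Rsad2 (1.59 ± 0.32) and Ifit1 (1.55 ± 0.25), antiviral effectors that sense RNA, modify nucleotides or bind RNA ends. Leaving out LPS replicate 2 or PBS replicate 1 left 10 called in each case, and 0 were called without the 3 libraries richest in B and T cell transcripts. In that smaller fit the median log2 change of the type I targets was 0.96. At an unadjusted p below 0.05, 24 of 26 were higher there, as were 1221 of all 11153 tested genes. Targets of interferon gamma and IRF1 had 2 of 26 tested genes higher and 0 lower, with a median log2 change of 0.55. In the main limma fit 18 of these 26 were higher at an unadjusted p below 0.05. The count was 25 of 26 for the type I targets and 1414 for all 11414 tested genes. Gbp3, a guanylate binding protein gene, rose from 40.8 ± 9.46 to 76.8 ± 15.1 FPKM (adjusted p = 0.0162), and Psme2, of the proteasome activator, had a log2 change of 0.54 ± 0.13 (adjusted p = 0.0380). On recovered reads edgeR called 4 and DESeq2 13 genes of this list, and 21 and 24 of the type I list. For the interferon gamma and IRF1 list, leaving out a library gave 0 (LPS replicate 2), 1 (LPS replicate 3, PBS replicates 1, 4 and 5), 5 (PBS replicate 3) or 7 (LPS replicate 1). That the called shares of the 2 target lists differ was not tested. The lists were chosen by role, and which interferon or factor acted on their genes was not measured.

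**Figure D4:**
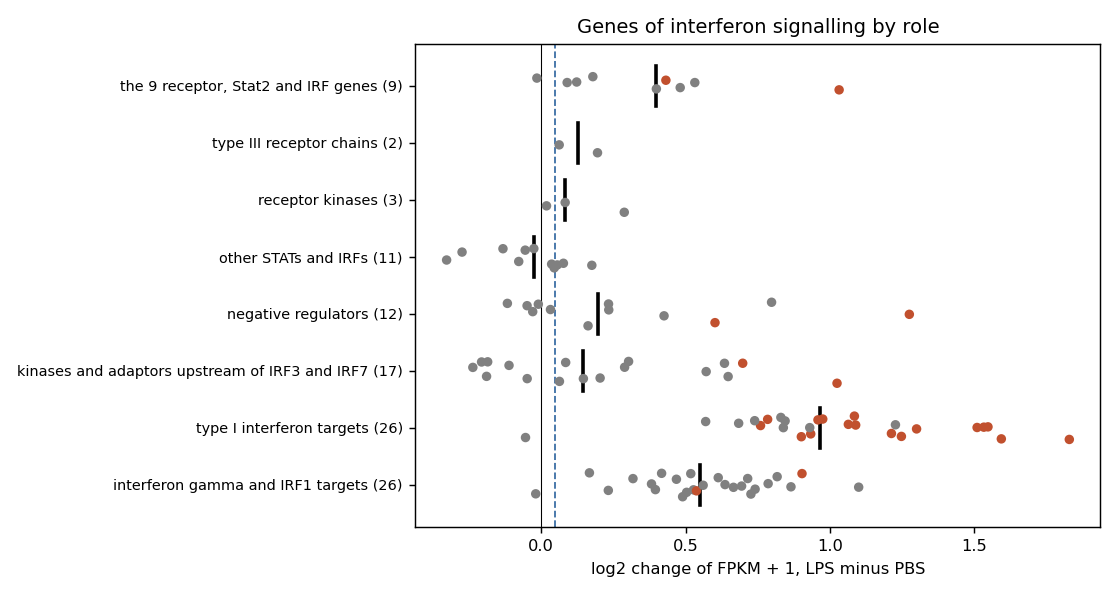
Log2 change of FPKM + 1 (LPS minus PBS) of every tested gene, by role in interferon signalling, with the number tested in parentheses; red points were called, black bars are list medians and the dashed line is the median of all tested genes, 0.05. The type I interferon targets lie farthest to the right, with a median of 0.97, and the other STAT and IRF genes lie around 0, with a median of -0.03.

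The summed FPKM of 12 neutrophil markers, mostly S100a8 and S100a9, was 718 to 1874 in PBS and 7380 to 14198 in LPS glands. By that sum every LPS gland was above every PBS gland, as for Irf7, Ifngr1 and Irf1. Singly, 5 of the 8 tested markers had no overlap between the groups, and Retnlg, Mmp9 and Itgam overlapped. Of the 8 tested markers 6 rose, and Mmp9 (limma adjusted p = 0.114) and Itgam (0.481) were not called. Ly6g, a defining marker that did not pass the filter and was not tested, was at 0.221 ± 0.125 FPKM after PBS and 1.15 ± 0.780 FPKM after LPS. Markers of monocytes and macrophages summed to 101 to 376 FPKM in PBS and 77.4 to 182.9 FPKM in LPS glands, with 0 of 9 tested genes called by limma. In whole glands more cells of a type and more RNA per cell cannot be told apart, and the part of neutrophil transcripts in the levels of Irf7, Ifngr1 and Irf1 was not tested. The share of FPKM in 8 milk protein genes was 38.6 to 49.9% in PBS and 32.2 to 44.3% in LPS glands, and leaving these genes out of the library total shifted the median over all tested genes from 0.05 to -0.13. That scaling called 128 genes higher and 348 lower, against 300 and 69 without it, 254 and 115 with median-of-ratios scaling and 233 and 145 with quantile normalization. On the scale without milk protein genes Irf7 was still called (log2 change 0.82, adjusted p = 0.0429), and the log2 changes of Ifnar1, Ifngr2 and Irf9 turned negative without a call.

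The genes most alike in pattern were those with the highest Pearson correlation of log2(FPKM + 1) over the 10 libraries, given as a description. The libraries share the treatment, so a gene that rose can correlate through the group difference alone. For Irf7 they were H2-D1 (r = 0.99), Phf11d (r = 0.98) and Bloc1s6 (r = 0.97), of which H2-D1 encodes an MHC class I heavy chain. For Irf1 they were Ifi47 (r = 0.99), Ubd (r = 0.98) and H2-T22 (r = 0.98), an interferon-inducible GTPase gene, a ubiquitin-like modifier gene and an MHC class I gene. For Stat2 they included Ddx58 (r = 0.97) and Rnf213 (r = 0.97), with Ddx58 encoding the RNA sensor RIG-I. For Ifngr1 they were Ier5l (r = 0.95), Plk2 (r = 0.95) and Tmprss4 (r = 0.92). After subtracting each group's mean, these r of Ifngr1 were 0.90, 0.85 and 0.67, and those of Irf7 above 0.98, 0.92 and 0.92. For Ifnar1 the nearest were Gtf2e1 (r = 0.95), Cul1 (r = 0.92) and Dnajc25 (r = 0.92), and for Ifnar2 Zscan21 (r = 0.94), Nadk (r = 0.94) and Dcaf12 (r = 0.93). For Ifngr2 the nearest were Slc31a2 (r = 0.93), Nck2 (r = 0.92) and Mgat1 (r = 0.90), for Irf9 Zfp532 (r = 0.92), Eipr1 (r = 0.90) and Akr1e1 (r = 0.88), and for Irf3 Bnip1 (r = 0.97), Ptrh2 (r = 0.96) and Mtch1 (r = 0.96). Among the 9 genes themselves, the most alike pairs were Irf1 with Irf7 (r = 0.89), Stat2 with Irf7 (r = 0.86) and Stat2 with Irf1 (r = 0.77). After subtracting each group's mean these were 0.73, 0.91 and 0.68. Ifngr1, the other gene called, had r = 0.69 with Irf7 over all libraries and -0.14 after subtracting the group means.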

How the data were processed

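The tools named are STAR 2.5, HTSeq 0.6.1 and a DESeq2 listed as version 2, and the build is mm10, per the submitters' processing notes; settings, annotation release and strand are not given in the sources used here. The authors deposited FPKM for all 35275 genes. A second deposited table lists 908 genes with raw read counts, a normalized signal (each count divided by 1 size factor per library), the authors' log2 fold changes and their p-values. The authors' gene lengths, coordinates and other annotation in that table were deposited per gene.

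From the counts and lengths of the listed genes the reads per library were found (15734303 to 18869545). Gene lengths that turn FPKM into whole reads (tolerance 0.002 reads) were then found for all 23059 genes above 0, covering at least 99.98% of the depth, and equalled the listed lengths for 906 of 908 genes. Gene symbols are those of an Ensembl name table and, for genes it lacks, the authors' table. Coordinates are those of GENCODE M21 on GRCm38, the same assembly as mm10.

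A gene was tested where 5 or more libraries reached FPKM 1 (4 or more where 3 libraries were left out) with limma 3.58.1 in R 4.3.3 on log2(FPKM + 1) (group as the only term, intensity trend, two-sided), with Benjamini-Hochberg adjustment over all 11414. Fold changes on this scale understate changes of low genes. Ratios were compared by exact permutation. Alternatives were other pseudocounts, filters and scalings, library weights, a replicate block, left-out libraries, and edgeR 4.0.16 and DESeq2 1.42.0 on recovered reads. The main limma fit and edgeR were tested on simulated independent libraries with known changes. DESeq2, the replicate block and the library weights were not tested in that way. The members, lists and tests were chosen with earlier results of these data known. Named besides the 9 genes were up to 3 called genes of largest change per list, otherwise the 2 of highest mean FPKM, and the 3 genes most correlated with each member, of which 1 is not reported here.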

Additional observations from a re-analysis of the deposited data

Results flagged for a closer look

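Irf1 in LPS replicate 3 was at 45.3 FPKM, apart from the other 4 LPS glands at 24.8 to 30.7 FPKM; the gap was 0.713 of the group's range, where Dixon's 95% critical value for 5 samples is 0.71. Irf7 in PBS replicate 1 was at 39.4 FPKM, apart from the other 4 PBS glands at 63.3 to 71.3 FPKM, with a gap of 0.751 of the range. In all, 26 groups of 5 values were examined for the 9 genes and their ratios, and 2 libraries stood apart in this way, where chance gives about 1 in 20. In PBS replicate 1, 24 of the 26 tested type I interferon targets were also at their lowest among PBS glands, and in LPS replicate 1 18 of 26 among LPS glands. Of the 26 tested interferon gamma and IRF1 targets, 15 were lowest in PBS replicate 1 and 15 in LPS replicate 1. Of all tested genes, 30.8% were lowest in PBS replicate 1 and 32.3% in LPS replicate 1, and PBS replicate 1 had 49.9% of its FPKM in milk protein genes, the highest share of any library. The part of that share in these counts was not tested.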

How the results depend on the processing

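In the main fit 2 of the 9 genes and 300 of all 11414 were called higher. The count among the 9 was 0 without a filter on low values (101 of all 23059 genes). Without PBS replicates 2 and 4 and LPS replicate 3 it was 0 as well (28 of 11153). It was 1 with median-of-ratios scaling (254 genes in all), quantile normalization (233), rescaling outside milk proteins (128) or edgeR (305). Leaving out 1 library gave 1 to 2 (125 to 295 genes in all without a PBS replicate, 117 without LPS replicate 2). Other pseudocounts gave 2 (302 and 274 genes in all), as did a filter at a mean FPKM of 5 (299) and DESeq2 (546). Library weights gave 3 (534 genes in all). Among the 9, the number called lower was 0 in all 22 alternatives. Irf7 lost its call without a filter (adjusted p = 0.0621), without LPS replicate 2 (0.0564) and without the 3 libraries named above (0.113). Its log2 change was at least 0.82 in the 22 alternatives. That of Ifngr1 lay between 0.22 and 0.49. The causes of these differences were not tested. By construction, the fits with libraries left out have fewer libraries, and the fit without a filter has more genes.

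With the replicate number as a block, 5 of the 9 genes were called higher: Ifnar2 (adjusted p = 0.0268), Stat2 (0.0112) and Irf1 (0.0063) besides Irf7 and Ifngr1, with 962 genes called higher and 267 lower in all. The labels do not say that a number marks 1 animal. Deviations from the group means correlated at 0.482, 0.362, 0.099, 0.103 and 0.494 for numbers 1 to 5. LPS replicates 1, 2 and 5 correlated best with the PBS replicate of the same number. LPS replicates 3 and 4 correlated best with PBS replicates 2 and 3 (0.421 and 0.141). Whether the numbers pair the glands is thus open, and the main fit did not use them. Called counts with the block were 4 for negative regulators, 6 for kinases and adaptors upstream of IRF3 and IRF7, 25 for type I interferon targets, 17 for interferon gamma and IRF1 targets and 1 for receptor kinases. For the ratios, a block of 5 pairs cannot give a p below 0.0625.

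Leaving out 1 library moved the Ifnar1 to Ifnar2 log2 ratio difference between -0.41 and -0.25 and that of Irf7 to Irf3 between 0.93 and 1.25. The latter passed without LPS replicate 1 or LPS replicate 5, and the former without LPS replicate 5 (adjusted p = 0.0317 in each case). Library weights also called Irf1 (0.0474). Signs changed only for genes without a call. Rescaled outside milk proteins, the log2 change was -0.11 for Ifnar1, -0.087 for Ifngr2 and -0.030 for Irf9, and with quantile normalization -0.0028 for Ifngr2. That of Irf3 ranged from -0.074 to 0.043 on leaving out 1 library and was 0.074 without the 3 libraries named above and -0.22 rescaled outside milk proteins. Depth gave each of the 9 genes at least 501 reads per library, whereas an interferon gene had at most 24, too few to compare groups.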
